A study of Mus musculus with 36 samples.

Results

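The apoptosis signal-regulating kinases (ASK) were described here in mouse gastrocnemius muscle: Map3k15 (ASK3), Map3k5 (ASK1) and Map3k6 (ASK2). They were found by their symbols in a count table of 46893 genes, and all 3 genes were present. RNA of 1 gastrocnemius per mouse was sequenced from 36 wild-type male C57BL/6 mice, which were 3 to 4 weeks old at the start and were treated for 12 weeks, with 6 mice in each of 6 groups. The NFD-C mice were sedentary on the standard AIN93G diet and the HFD-C mice were sedentary on a high-fat diet. With the same high-fat feed, running on wheels amounted to 2.1 km/day in HFD-25%, 4.2 km/day in HFD-50%, 6.3 km/day in HFD-75% and, without restriction, 8.3 km/day in HFD-U, and the names give the share of the unrestricted distance in percent. No group carried a genetic change, the mice were all male, and each library came from a single mouse.

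ASK proteins are MAP kinase kinase kinases. They phosphorylate the kinases Map2k3, Map2k4, Map2k6 and Map2k7, which in turn activate p38 and JNK, and so pass on oxidative, endoplasmic reticulum and inflammatory stress. ASK1 is held inactive by reduced thioredoxin and is activated when thioredoxin is oxidised or bound by Txnip, ASK2 works largely in a complex with ASK1, and ASK3 is best known from the kidney, where it responds to osmotic stress and acts on the WNK and SPAK/OSR1 kinases that control ion transport. In skeletal muscle, contraction is known to activate p38 and JNK.

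The 3 genes are related but distinct in sequence. Their coding sequences were 63.1% identical between Map3k15 and Map3k5, 55.1% between Map3k15 and Map3k6, and 58% between Map3k5 and Map3k6 (global alignment of the reference transcripts Map3k15-201, Map3k5-201 and Map3k6-201, GRCm38). The most conserved stretch of 90 bases lies in exons 15 and 16 of each gene and encodes part of the kinase domain. It is shown because it is where reads of the family could most easily be confused, and capitals mark the 66 bases that are identical in all 3 genes. It spans chrX:160091670-160094340 in Map3k15, chr10:20094451-20099549 in Map3k5 and chr4:133247670-133248057 in Map3k6 (GRCm38, plus strand, an intron included).
Map3k15: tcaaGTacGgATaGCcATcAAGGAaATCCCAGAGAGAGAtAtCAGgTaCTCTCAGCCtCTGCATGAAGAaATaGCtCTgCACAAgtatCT
Map3k5: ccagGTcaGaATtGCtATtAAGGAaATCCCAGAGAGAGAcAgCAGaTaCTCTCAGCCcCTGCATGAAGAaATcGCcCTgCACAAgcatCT
Map3k6: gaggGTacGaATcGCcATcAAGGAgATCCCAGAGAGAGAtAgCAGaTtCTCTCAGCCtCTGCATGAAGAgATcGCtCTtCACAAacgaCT

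Even there, no exact run shared by a pair of them was longer than 21 bases, against reads of 150 bases. The longest run common to Map3k15 and Map3k6 was this 21-base one in exon 16 of Map3k15.
Map3k15 and Map3k6: ctctcagcctctgcatgaaga
Map3k15 and Map3k5 shared at most 20 bases, in exon 15 of Map3k15.
Map3k15 and Map3k5: aaggaaatcccagagagaga
Of all windows of 150 bases in each transcript, 0 of 5301 in Map3k5 and 0 of 4185 in Map3k6 occurred in the transcripts of another gene. In Map3k15, 277 of 4199 did, and the other gene was in each case Pdha1, a subunit of pyruvate dehydrogenase, which is read from the opposite strand and overlaps the end of Map3k15. Of the 4348 exonic bases of Map3k15, 603 (13.9%) lie in exons of Pdha1. The reference transcripts of Map3k15, Map3k5 and Map3k6 have 4348, 5450 and 4334 bases. Their gene lengths in the count table are 4572, 7243 and 7173 bases, and counted bases outside these transcripts were not checked.

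In the coordinates of the count table (GRCm39), Map3k15 lies on chrX:158771200-158906342, Map3k5 on chr10:19809847-20018496 and Map3k6 on chr4:132965290-132980240, each on the plus strand. Map3k15 and Pdha1 (chrX:158905215-158921426, minus strand) share 1128 bases. The strand setting of the counting is not given in the sources used here, so reads of Map3k15 and Pdha1 in the shared bases cannot be told apart. Pdha1 was abundant, with a mean of 356 CPM (counts scaled to library size with TMM factors) over the 36 mice. Its levels are set beside those of Map3k15 as a description. HFD-C had 330 ± 121 CPM of Pdha1 (mean ± SD, n = 6) and HFD-25% 371 ± 140 CPM, a log2 fold change of 0.17 (SE 0.24, edgeR adjusted p = 0.957). Against HFD-C, Pdha1 was at -0.02 in HFD-50% (SE 0.28), 0.30 in HFD-75% (SE 0.24) and 0.30 in HFD-U (SE 0.21). Across the 36 mice, Pearson's r of log2(CPM + 0.5) between Pdha1 and Map3k15 was -0.015. Within groups it was -0.181, and in the 24 running mice -0.258. The part of Pdha1 reads in the counts of Map3k15 was not tested. No gene of the table overlapped Map3k5 or Map3k6. The nearest protein-coding genes on either side were Pex7 and Map7 for Map3k5, and Cd164l2 and Sytl1 for Map3k6. Sytl1 is on the minus strand, so its own end lies 160 bases beyond the end of Map3k6, and it had a mean of 0.509 CPM.

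Library totals ran from 13060090 to 27981702 counted reads. Summed levels of 5 skeletal muscle genes (Acta1, Ckm, Des, Mb, Ttn) were 39300 to 67800 CPM in the 36 libraries, so genes that define muscle were abundant in each of them. The libraries fell into 2 sets by the share of counts on 4 rRNA-linked features. The share was 1.92 to 3.64% in NFD-C and 0.393 to 1.01% in the 24 running mice, while HFD-C held 4 libraries of the high set and 2 of the low set (0.543 to 3.39%). The sets therefore go largely with the groups. All comparisons with HFD-C share its 6 mice, and in whole muscle fewer cells of a type and less RNA per cell cannot be told apart.

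Map3k6 was the most abundant of the 3 genes and Map3k15 the least. Per length, their mean levels over the 36 mice were 3.54 ± 1.38 FPKM for Map3k6, 0.969 ± 0.256 FPKM for Map3k5 and 0.632 ± 0.351 FPKM for Map3k15 (SD, n = 36). Among 21 other MAP3K genes, Map3k20 (ZAK, a sensor of ribosome and contraction stress) was the most abundant at 27.1 FPKM, and Araf had 12.1 FPKM. Map3k6 lay between Taok2 at 3.89 FPKM and Map3k11 at 3.45 FPKM. Map3k5 and Map3k15 were near Map3k1 at 0.89 FPKM and Map3k8 at 0.645 FPKM, so both were weakly expressed MAP3Ks in this muscle.

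Map3k15 was higher in running mice than in sedentary mice on the same diet. It was selected on its measured difference between HFD-25% and HFD-C, with Map3k5 and Map3k6 added as its relatives, so its levels in these groups, and against them, are given as a description without a test. In HFD-C, Map3k15 had 0.663 CPM in the lowest mouse, a median of 1.18 CPM and 1.63 CPM in the highest. In HFD-25% the lowest mouse had 4.31 CPM, the median was 4.69 CPM and the highest mouse had 5.91 CPM. All 6 HFD-25% mice thus lay above all 6 HFD-C mice, with a log2 fold change of 2.02 (SE 0.23), or 4.06-fold. Of the 12202 genes in this fit, 0.156% were higher in all HFD-25% mice than in all HFD-C mice, and 1 gene (0.0082%) passed an adjusted p of 0.05. Nothing is read from these shares for Map3k15, because this contrast chose it.

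The other running groups were more spread or lower. In HFD-50% Map3k15 ranged from 1.83 CPM to 7.65 CPM with a median of 4.02 CPM. The mice numbered 1 and 4 had 1.83 and 1.97 CPM, while the other 4 had 3.62 to 7.65 CPM. All 6 still lay above every HFD-C mouse (log2 fold change 1.81, SE 0.36), as did 0.371% of the genes tested there. In HFD-75% the range was 1.54 to 3.12 CPM with a median of 2.35 CPM (log2 fold change 1.02, SE 0.27), and in HFD-U it was 1.54 to 3.8 CPM with a median of 3.15 CPM (log2 fold change 1.25, SE 0.29). In each of HFD-75% and HFD-U, 5 of the 6 mice were above all HFD-C mice, and the remaining mouse, at 1.54 CPM, was just under the highest HFD-C mouse. Over the running groups together, 22 of 24 mice were above all HFD-C mice (3.55 ± 1.54 against 1.18 ± 0.326 CPM, log2 fold change 1.58, SE 0.30).

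**Figure D1:**
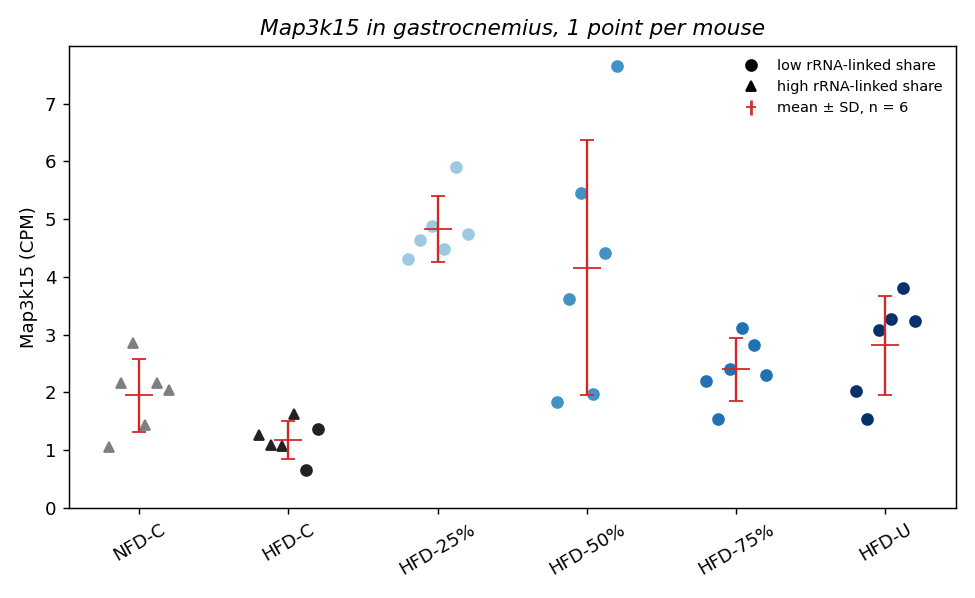
Map3k15 in CPM (vertical axis) in each mouse of the 6 groups (horizontal axis), with the mean ± SD of 6 mice in red; circles are libraries of the low and triangles of the high rRNA-linked set. The 6 HFD-25% mice sit between 4.31 and 5.91 CPM, above all mice of NFD-C, HFD-C, HFD-75% and HFD-U, and HFD-50% is spread from 1.83 to 7.65 CPM.

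The normal-fat sedentary mice lay between HFD-C and the running groups. Map3k15 in NFD-C was 1.05 CPM in the lowest mouse, 2.1 CPM at the median and 2.85 CPM in the highest. Of the 6 NFD-C mice, 4 were above all HFD-C mice, with a log2 fold change of 0.72 (SE 0.31). Against NFD-C, Map3k15 was higher by 1.32 on the log2 scale in HFD-25% (SE 0.23, 6 of 6 mice above all NFD-C mice, as in 0.361% of the genes tested), by 1.09 in HFD-50% (SE 0.36, 4 of 6), by 0.30 in HFD-75% (SE 0.27, 1 of 6) and by 0.54 in HFD-U (SE 0.29, 4 of 6). NFD-C and the running groups differ in diet, in exercise and in the library set. All NFD-C libraries are of the high rRNA-linked set, and all libraries of the running groups are of the low set. The effects of diet, exercise and library set cannot be told apart in these pairs.

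In order of mean level, the groups were HFD-C at 1.18 CPM, NFD-C at 1.95 CPM, HFD-75% at 2.4 CPM, HFD-U at 2.82 CPM, HFD-50% at 4.16 CPM and HFD-25% at 4.83 CPM. Neighbours in this order overlapped in each case. The order of the means was not that of the distance run, and the group with the shortest distance had the highest mean. That group took part in the choice of Map3k15, so no relation to distance is read from this order. HFD-25% did not overlap HFD-75% (log2 fold change 1.01, SE 0.19) or HFD-U (0.78, SE 0.22), where 0.0582% and 0.134% of the genes tested were higher in all HFD-25% mice.

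The 3 longer distances were outside the contrast that chose Map3k15 and were tested. Map3k15 was 0.80 higher on the log2 scale in HFD-50% than in HFD-75% (SE 0.33, edgeR unadjusted p = 0.0296), but not past the threshold after adjustment over all genes (adjusted p = 0.838). In that pair 5.37% of the genes tested passed an unadjusted p of 0.05 and none an adjusted one, with edgeR and also with DESeq2. The differences of HFD-50% from HFD-U (0.56, SE 0.35, adjusted p = 0.506) and of HFD-75% from HFD-U (-0.23, SE 0.25, adjusted p = 1) were not past the threshold either. Without the HFD-50% mouse numbered 6, at 7.65 CPM, HFD-50% differed from HFD-75% by 0.53 (unadjusted p = 0.107) and from HFD-U by 0.30. The difference of HFD-75% from HFD-U was -0.13 without the HFD-75% mouse numbered 2, -0.36 without the HFD-U mouse numbered 2 and -0.13 without the HFD-U mouse numbered 5.

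Counting error bore on these values because the gene was weakly expressed. In HFD-C the mean was 22.5 reads per library, and the lowest library had 11. Map3k5 and Map3k6 passed the minimum mean count of 25 within every group, whereas Map3k15 passed it in comparisons with HFD-C through the other group. The coefficient of variation between mice was 27.5% in HFD-C, where counting alone gives 21.1%, and 11.7% in HFD-25%, where it gives 10.8%. The spread was thus little above what counting gives in HFD-25%, and further above it in HFD-C. In HFD-50% it was 53.2% against 12.5% from counting, and that spread was larger than the depth gives.

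The rRNA-linked share also moved with Map3k15 across the 36 mice (Pearson's r = -0.446, Spearman's rho = -0.259, points that share groups and libraries). Within HFD-C, the 2 low-share libraries had 0.663 and 1.37 CPM, among the 4 high-share libraries at 1.08 to 1.63 CPM or below them. With those 2 as the only HFD-C libraries, the log2 fold change of HFD-25% was 2.26. Of the markers of other cells, summed endothelial genes (Pecam1, Cdh5, Kdr, Tek, Vwf, all 5 detected) moved most with Map3k15 (r = 0.438). They ranged from 117 to 223 CPM in HFD-C and from 116 to 381 CPM in HFD-25%. Slow fibre genes (7 of 7 detected) ranged from 133 to 2320 CPM in HFD-C and from 127 to 3130 CPM in HFD-25%, with r = 0.281. The part of these cells in the level of Map3k15 was not tested.

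Map3k5 (ASK1) was not found to differ between any of the groups. In HFD-C it had 5.94 CPM in the lowest mouse, a median of 7.26 CPM and 10 CPM in the highest. In HFD-25% the range was 5.81 to 10.3 CPM with a median of 7.28 CPM, nearly that of HFD-C (log2 fold change -0.01, SE 0.19, edgeR adjusted p = 0.998). The NFD-C mice ranged from 5.79 to 10 CPM with a median of 7.36 CPM (log2 fold change -0.02, SE 0.18, adjusted p = 1).

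Means in the 3 groups with longer distances were lower, without passing the test. The lowest, median and highest values were 4.01, 6.04 and 8.44 CPM in HFD-50%, 3.22, 6.33 and 8.78 CPM in HFD-75%, and 4.63, 5.75 and 8.24 CPM in HFD-U. Against HFD-C the log2 fold changes were -0.33 in HFD-50% (SE 0.22, adjusted p = 0.641), -0.30 in HFD-75% (SE 0.22, adjusted p = 0.999) and -0.33 in HFD-U (SE 0.18, adjusted p = 0.953). In these groups 3, 3 and 4 of 6 mice were below all HFD-C mice, and the other mice overlapped with HFD-C. With the mouse number as a block, the HFD-U difference had an unadjusted p of 0.0313 in place of 0.0888, and an adjusted p of 0.439 in edgeR. For the 24 running mice the log2 fold change was -0.24 (SE 0.18, adjusted p = 0.728). In order of mean level the groups were HFD-50% at 6.2 CPM, HFD-U at 6.23 CPM, HFD-75% at 6.34 CPM, NFD-C at 7.72 CPM, HFD-25% at 7.78 CPM and HFD-C at 7.83 CPM, and neighbours overlapped. A linear and a quadratic term of distance had an adjusted p of 0.572 over 30 high-fat mice and 0.81 over the 24 that ran. Between running groups Map3k5 differed by -0.32 to 0.32 on the log2 scale, with a smallest unadjusted p of 0.121, and between running groups and NFD-C by -0.32 to 0.02, with a smallest unadjusted p of 0.118 (edgeR).

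**Figure D2:**
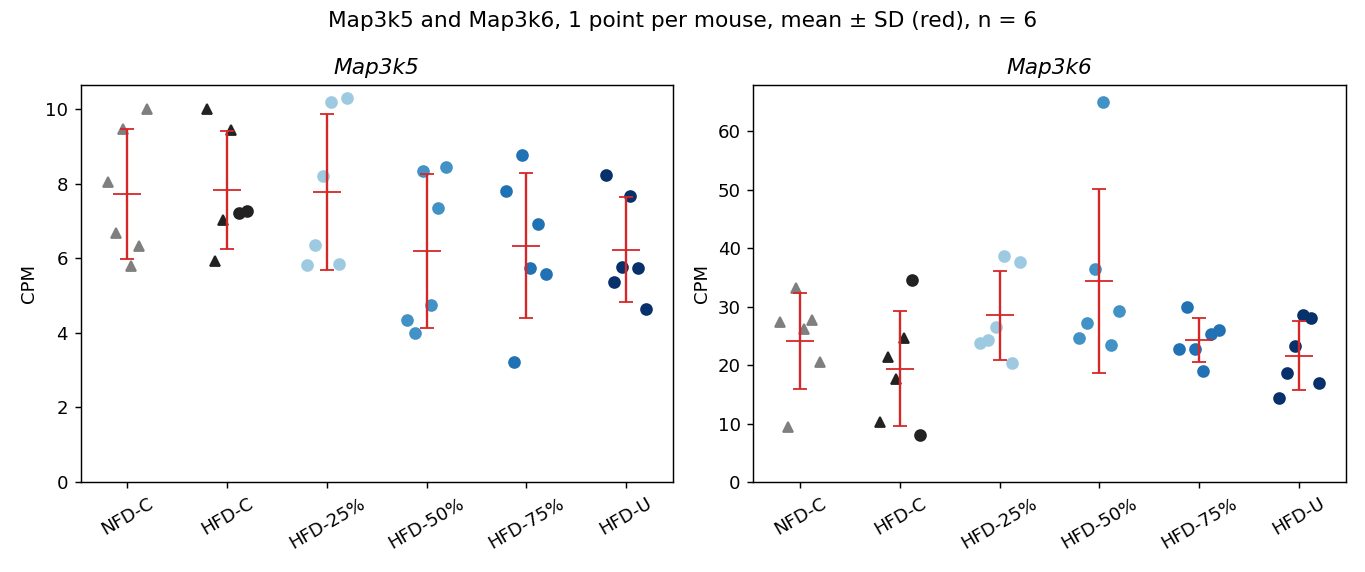
Map3k5 (left) and Map3k6 (right) in CPM in each mouse of the 6 groups, with the mean ± SD of 6 mice in red; circles are low-share and triangles high-share libraries. Map3k5 overlaps in all groups, and the HFD-50% mouse numbered 4 stands apart in Map3k6 at 65.1 CPM.

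Map3k6 (ASK2) had a higher mean in each running group than in HFD-C, but none of these differences passed after adjustment. The HFD-C mice were spread, from 7.97 CPM in the lowest through a median of 19.5 CPM to 34.6 CPM in the highest. In HFD-25% the range was 20.3 to 38.6 CPM with a median of 25.4 CPM, and in HFD-50% it was 23.4 to 65.1 CPM with a median of 28.2 CPM. In both groups 2 of 6 mice exceeded all HFD-C mice, and the others overlapped with them. The log2 fold change was 0.55 in HFD-25% (SE 0.29, edgeR adjusted p = 0.745) and 0.83 in HFD-50% (SE 0.34, unadjusted p = 0.0251, adjusted p = 0.396). In these comparisons 6.98% and 10.7% of all genes passed an unadjusted p of 0.05. Without the HFD-50% mouse numbered 4, at 65.1 CPM, the log2 fold change of HFD-50% was 0.54 (unadjusted p = 0.0906).

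The longer distances lay nearer to HFD-C. In HFD-75% Map3k6 ranged from 19 to 29.9 CPM with a median of 24.1 CPM (log2 fold change 0.33, SE 0.28, adjusted p = 0.999), and in HFD-U from 14.4 to 28.5 CPM with a median of 20.9 CPM (0.16, SE 0.30, adjusted p = 0.997). None of the mice in these groups exceeded the highest HFD-C mouse. Over the 24 running mice the log2 fold change was 0.49 (SE 0.24, unadjusted p = 0.046, adjusted p = 0.529), in a fit where 9.27% of all genes passed an unadjusted p of 0.05. This value was 0.74 without the HFD-C mouse numbered 5, at 34.6 CPM, and 0.33 without the HFD-C mouse numbered 6, at 7.97 CPM (unadjusted p = 0.00529 and 0.173, adjusted p = 0.252 and 0.738). That of HFD-75% was 0.57 and 0.17 without these mice, and 0.19 without the HFD-C mouse numbered 1. NFD-C ranged from 9.48 to 33.2 CPM with a median of 26.7 CPM, within the range of HFD-C (0.31, SE 0.33, adjusted p = 1).

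Among the running groups, Map3k6 was highest in HFD-50%. It differed from HFD-U by 0.68 on the log2 scale (SE 0.25, unadjusted p = 0.0177, adjusted p = 0.316) and from HFD-75% by 0.51 (SE 0.23, unadjusted p = 0.0407, adjusted p = 0.838). Of all genes, 12.4% passed an unadjusted p of 0.05 between HFD-50% and HFD-U. HFD-50% exceeded HFD-25% by 0.28 (SE 0.25, adjusted p = 1), and without the mouse numbered 4 this difference was -0.02. Without that mouse, HFD-50% differed from HFD-U by 0.38 (unadjusted p = 0.0536) and from HFD-75% by 0.21 (unadjusted p = 0.14). HFD-25% exceeded HFD-U by 0.40 (SE 0.20, unadjusted p = 0.0604, adjusted p = 0.927), and against NFD-C the running groups lay between -0.15 and 0.52, with a smallest unadjusted p of 0.0899. The distance terms had an unadjusted p of 0.0133 (adjusted 0.247) over 30 mice and of 0.0394 (adjusted 0.559) over 24, where 12.2% and 8.49% of all genes passed an unadjusted p of 0.05. In order of mean level the groups were HFD-C at 19.4 CPM, HFD-U at 21.6 CPM, NFD-C at 24.1 CPM, HFD-75% at 24.3 CPM, HFD-25% at 28.5 CPM and HFD-50% at 34.4 CPM, and neighbours overlapped.

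**Figure D3:**
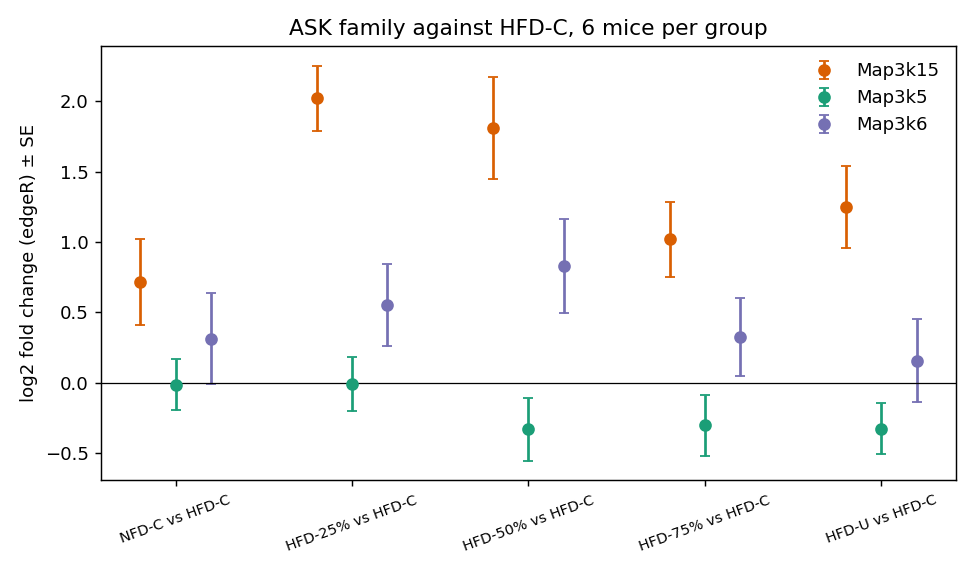
Log2 fold change (edgeR, vertical axis) with its SE of the 3 ASK genes in each group against HFD-C, 6 mice per group, all sharing the same HFD-C mice. Map3k15 lies at 0.72 in NFD-C and at 1.02 to 2.02 in the running groups, Map3k6 at 0.16 to 0.83 and Map3k5 at -0.33 to -0.01.

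The makeup of the family is given as a description, since it contains the difference that chose Map3k15. Of the summed FPKM of the 3 genes, Map3k15 held 7.19 ± 3.32% in HFD-C, 9.42 ± 4.39% in NFD-C and 18 ± 4.87% in HFD-25% (SD, n = 6). In each of the 6 HFD-25% mice the share was 12.6% or more, and in each HFD-C mouse it was 12.4% or less. In HFD-50%, HFD-75% and HFD-U it was 14.6 ± 7.04%, 11.1 ± 3.17% and 13.7 ± 3.33%. Map3k6 held most of the family in all groups, at a mean of 63.6 to 71.7%. Map3k5 held 29.2 ± 11.4% in HFD-C and a mean of 13.7 to 19.8% in the running groups. Over the 24 running mice the mean share was 17.3% for Map3k5 and 14.4% for Map3k15. These shares sum to 100% in a mouse, so a higher share of a gene lowers the others. They also depend on the gene lengths of the count table, which are longer than the reference transcripts by unequal amounts. Shares with transcript lengths were not computed.

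**Figure D4:**
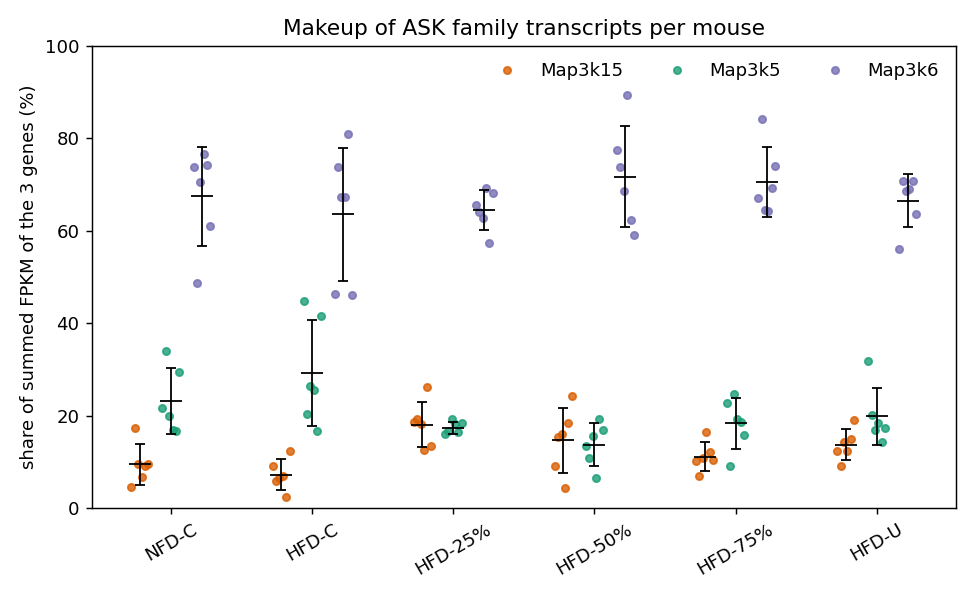
Share of Map3k15, Map3k5 and Map3k6 in their summed FPKM (vertical axis, percent) in each mouse of the 6 groups, with the mean ± SD in black. Map3k6 lies highest in every mouse, and the mean of Map3k15 is 7.19% in HFD-C and 18% in HFD-25%.

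Over all 36 mice, Map3k15 was only weakly correlated with its relatives, and the correlation of Map3k5 with Map3k6 was not computed. Over the 36 mice Pearson's r with Map3k15, on log2(CPM + 0.5), was 0.108 for Map3k5 and 0.267 for Map3k6. After removal of the group means it was 0.43 for Map3k5 and -0.18 for Map3k6, and in the 24 running mice 0.484 and 0.148. The HFD-50% mouse with the most Map3k6 was among the lowest of its group in Map3k15, at 1.97 CPM, and had 4.74 CPM of Map3k5. The HFD-50% mouse with the most Map3k15, at 7.65 CPM, also had the most Map3k5 of its group, at 8.44 CPM.

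**Figure D5:**
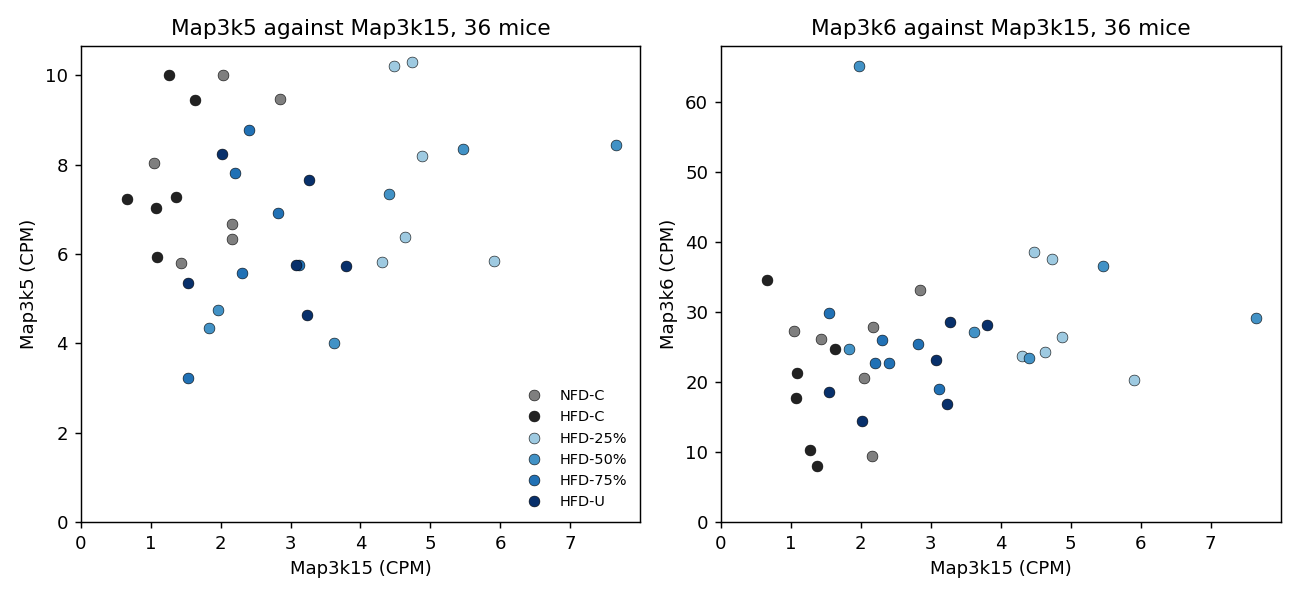
Map3k5 (left) and Map3k6 (right) in CPM against Map3k15 in CPM (horizontal axes), 1 point per mouse coloured by group, 36 mice. The HFD-25% mice lie to the right of all HFD-C mice at like levels of Map3k5, and the mouse at 65.1 CPM of Map3k6 has 1.97 CPM of Map3k15.

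Among 12052 genes, those whose levels across the 36 mice were most like Map3k15 were LOC118567527 (a long non-coding RNA), Car4, Cracr2b, Ybx2 and Fmo1. Their Pearson's r was 0.788, 0.738, 0.726, 0.7 and 0.692, and within groups 0.63, 0.531, 0.524, 0.672 and 0.464. Car4, a membrane-bound carbonic anhydrase, had 5.29 ± 3.47 CPM in HFD-C, 5.76 ± 2.06 CPM in NFD-C, 14.7 ± 8.92 CPM in HFD-25%, 17 ± 8.26 CPM in HFD-50%, 10.2 ± 2.23 CPM in HFD-75% and 11.3 ± 6.1 CPM in HFD-U (SD, n = 6). Its mean was highest in HFD-50%, and that of Map3k15 in HFD-25%. Cracr2b, a regulator of store-operated calcium entry, had 4.78 ± 1.64 CPM in HFD-C and 8.33 ± 1.76 CPM in HFD-25%, while Fmo1, a flavin-containing monooxygenase, had 19.6 ± 10 and 37.3 ± 15.4 CPM. Ybx2, an RNA-binding protein, had 8.12 ± 2.45 and 15.4 ± 7.98 CPM in these groups. These genes were chosen for their likeness to Map3k15, so their differences between groups are a description.

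The rest of the pathway was counted in the same comparisons. Of 83 genes in 5 lists of ASK signalling and related kinases, 74 or 75 had enough counts to be tested, depending on the comparison. Against HFD-C, 2 of 74 passed an unadjusted p of 0.05 in HFD-25% (0 higher, 2 lower), 5 of 75 in HFD-50% (3 higher, 2 lower), 5 of 74 in HFD-75% (3 higher, 2 lower), 2 of 74 in HFD-U (0 higher, 2 lower) and 1 of 74 in NFD-C (1 higher). Of all genes, the HFD-25% comparison had 3.4% higher and 3.58% lower. For HFD-50% these shares were 5.8% and 4.89%, for HFD-75% they were 2.31% and 3.16%, for HFD-U 2.15% and 3.31%, and for NFD-C 1.98% and 2.14%. With the mouse number as a block, 8 of the list genes passed an unadjusted p in HFD-U, and so did 1232 of all 12023 genes, against 657 without the block. No list gene passed an adjusted p of 0.05 with edgeR in these 5 comparisons, and of all genes only 1 did, in HFD-25%. DESeq2 called 1 list gene, Txnip in HFD-50%, and 44, 160, 40, 28 and 2 of all genes in the 5 comparisons. The median log2 fold change of the list genes lay between -0.04 and 0.03, and that of all genes between -0.01 and 0.01.

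Upstream of ASK1, Txnip, which binds thioredoxin, was the most abundant of 23 regulators at 200 FPKM. In HFD-C it ranged from 355 to 597 CPM with a median of 470 CPM, and in HFD-50% from 585 to 796 CPM with a median of 676 CPM. Of the HFD-50% mice, 5 of 6 exceeded all HFD-C mice, with a log2 fold change of 0.50 (SE 0.15, unadjusted p = 0.00384, edgeR adjusted p = 0.23). It was 0.38 in HFD-75% (SE 0.15, unadjusted p = 0.0243, adjusted p = 0.825), 0.24 in HFD-25% (adjusted p = 0.777) and 0.16 in HFD-U (adjusted p = 0.997). Txn2, mitochondrial thioredoxin, which holds back the mitochondrial pool of ASK1, had 141 ± 23.8 CPM in HFD-C and means of 147 to 151 CPM in the running groups. Traf2, an adaptor that helps to activate ASK1, was at -0.38 on the log2 scale in HFD-50% (SE 0.14, adjusted p = 0.335) and -0.25 in HFD-75% (SE 0.11, adjusted p = 0.875), but of 0.29 in NFD-C (SE 0.12, adjusted p = 1).

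Below the ASK kinases, Map2k3, which activates p38, was the most abundant kinase of its list at 90.3 FPKM, followed by Mapk12 (p38 gamma) at 72.6 FPKM and Mapk14 (p38 alpha) at 32.5 FPKM. Map2k3 had 182 ± 25.9 CPM in HFD-C and 220 ± 31.4 CPM in HFD-75%, a log2 fold change of 0.28 (SE 0.13, unadjusted p = 0.0437, adjusted p = 0.892). In HFD-50% it had 221 ± 51.2 CPM, a log2 fold change of 0.286 (SE 0.165, edgeR unadjusted p = 0.102, adjusted p = 0.559). Against HFD-C the log2 fold change of Map2k3 was 0.189 in HFD-25%, 0.023 in HFD-U and -0.145 in NFD-C. Mapk8 (JNK1) differed by -0.35 on the log2 scale in HFD-50% (SE 0.13, adjusted p = 0.367), and Mapk8ip3, a JNK scaffold, by 0.48 (SE 0.19, adjusted p = 0.396). Among the WNK kinases and cation-chloride cotransporters linked to ASK3, Wnk1 at 20.5 FPKM, Slc12a2 at 17.4 FPKM and Wnk2 at 13.8 FPKM led. Their log2 fold changes against HFD-C lay between -0.23 and 0.30 in the 5 comparisons, and the smallest unadjusted p was 0.0729. Slc12a7, a potassium-chloride cotransporter of the same list, was at 0.36 in HFD-50% (SE 0.16, unadjusted p = 0.0353, adjusted p = 0.425). In HFD-25% it was at 0.446 (SE 0.266, edgeR unadjusted p = 0.113, adjusted p = 0.786).

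Jund, an AP-1 transcription factor of the JNK and p38 substrates, passed an adjusted p of 0.05 for the 24 running mice together, where 0.3% of all genes passed, and in the per-comparison edgeR fits against HFD-C no other list gene did. It had 37.4 CPM in the lowest HFD-C mouse, a median of 55.5 CPM and 78 CPM in the highest. The running mice ranged from 34.7 to 60.8 CPM with a median of 42 CPM. The median of the running mice was thus below that of HFD-C, while their highest mouse was above the HFD-C median. Of the running mice, 3 of 24 were below all HFD-C mice. Jund fell by 0.46 on the log2 scale (SE 0.10, edgeR adjusted p = 0.0193). The call was lost without the HFD-C mouse numbered 1, 3 or 6, each in turn, with an adjusted p of up to 0.141, and with the 2 low-share HFD-C libraries alone the log2 fold change was -0.44 (adjusted p = 0.226). In NFD-C, Jund had 45.9 ± 9.46 CPM (SD, n = 6), a log2 fold change of -0.33 (SE 0.17, adjusted p = 1).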

How the data were processed

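Paired-end reads of poly(A) RNA from gastrocnemius were aligned by the authors with HISAT2 2.0.5 and counted on genes with featureCounts 1.5.0-p3. The deposited values were whole-number counts per gene and library, with no normalization. The submitters' processing notes name mm10, whereas the chromosome sequences given beside the counts are those of GRCm39. The annotation release and the strand setting are not given in the sources used here. Totals were 13060090 to 27981702 counts per library. Replicates of a group differed by 13.4 to 162 times the sampling variance (chi-square per degree of freedom), so none was a repeated library.

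Counts were analysed in R 4.3.3. Each fit held the groups compared and kept genes whose mean count was 25 or more. Two-sided p-values came from edgeR 4.0.16 (quasi-likelihood F-test, TMM factors), with Benjamini-Hochberg adjustment across every gene tested. The SE was the absolute log2 fold change divided by the square root of F. CPM used the TMM factors over 36 libraries, and FPKM also the gene lengths of the table. P-values set a difference between groups, or the distance terms, against the spread between mice within groups. Distance was tested with a linear and a quadratic term. The tests were tried on simulated counts.

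The 3 genes, the 5 pathway lists and the markers were chosen with earlier results of these data known. Named genes were the 3 ASK genes, overlapping and nearest protein-coding genes, the 3 most abundant members of each list, list members past an adjusted p of 0.05, and the 5 genes most correlated with Map3k15. A gene that this rule also covers is not reported here. Map3k11, Map3k1, Map3k8, Taok2, Traf2, Mapk8, Mapk8ip3 and Slc12a7 were named after their values were seen. Sequences came from GENCODE transcripts on GRCm38, and coordinates of the builds were not mixed. Alternatives were DESeq2 1.42.0, no minimum count, RLE size factors, a joint fit of all 36 mice, a block for the mouse number, the low-share libraries alone (a share of rRNA-linked features, AY036118, LOC118568312, mt-Rnr1 and mt-Rnr2, under 1.39%), and leaving out each mouse.

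Mice carry the numbers 1 to 6 in each group, and no source says that a number marks a shared litter or day. Deviations of same-numbered mice correlated at over 0.1 in all 6 pairs only for HFD-U and HFD-C (0.132 to 0.536).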

Additional observations from a re-analysis of the deposited data

Results flagged for a closer look

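Of 18 sets of 6 mice (3 genes in 6 groups), 2 held a mouse far from the others by Dixon's criterion, which chance alone meets in about 1 of 20 sets. Map3k15 was 5.91 CPM in the HFD-25% mouse numbered 5, where the next mouse had 4.88 CPM, a gap of 0.643 of the group's range. Map3k6 was 65.1 CPM in the HFD-50% mouse numbered 4, where the next had 36.5 CPM, a gap of 0.685 of the range. The same mouse had 1.97 CPM of Map3k15 and 4.74 CPM of Map3k5. The cause of either value was not tested.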

How the results depend on the processing

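Over the settings other than left-out mice, 224 of the values that answer a comparison kept their direction and their side of the threshold, or moved by less than the spread. The log2 fold change of Map3k15 in HFD-25% against HFD-C moved to 2.26 with the low-share libraries alone, which leave 2 HFD-C mice. That of Map3k5 turned to 0.003 without a minimum count and to 0.11 with those libraries, and between HFD-75% and HFD-U to -0.004 with the replicate block. The block changed no adjusted call of the 3 genes. At an unadjusted p it moved Map3k5 in HFD-U (0.0313) and Map3k6 in HFD-25% (0.0472), both against HFD-C, and Map3k6 in HFD-25% against HFD-U (0.0279) to under 0.05, and Map3k15 (0.0661) and Map3k6 (0.106) in HFD-50% against HFD-75% to over it. In HFD-50% against HFD-C, 1 list gene, Txnip, passed an adjusted p with DESeq2 (0.0356) and 1, again Txnip, in the fit over all 36 mice (0.0374), and none with edgeR on the pair. List genes at an unadjusted p numbered 2 to 4 in HFD-25%, 5 to 12 in HFD-50%, 2 to 8 in HFD-U, 3 to 5 in the 24 running mice and 1 to 6 in NFD-C, and counts over all genes moved too (with the block, from 1296 to 1709 in HFD-50% and from 657 to 1232 in HFD-U), so nothing is read from these ranges.

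With each mouse left out in turn, Map3k15 against HFD-C lay from 1.91 to 2.13 with HFD-25% mice, from 1.55 to 1.96 with HFD-50% mice, from 0.90 to 1.13 with HFD-75% mice and from 1.13 to 1.38 with HFD-U mice. Among the longer distances its ranges were 0.53 to 0.95 (HFD-50% against HFD-75%), 0.30 to 0.71 (HFD-50% against HFD-U) and -0.36 to -0.13 (HFD-75% against HFD-U). The sign turned in 28 values and 530 kept their direction and side of the threshold. For Map3k5 the ranges were -0.099 to 0.08 (HFD-25% against HFD-C), -0.106 to 0.066 (NFD-C against HFD-C), -0.164 to 0.086 (HFD-50% against HFD-75%), -0.117 to 0.098 (HFD-50% against HFD-U) and -0.091 to 0.163 (HFD-75% against HFD-U). Map3k5 in HFD-75% against HFD-C was -0.16 without the HFD-75% mouse numbered 2. Map3k6 lay from 0.33 to 0.74 in the 24 running mice, from 0.17 to 0.57 in HFD-75% and from 0.15 to 0.55 in NFD-C, against HFD-C, where the NFD-C mice numbered 2 and 3 and the HFD-C mice numbered 1, 5 and 6 each moved the NFD-C value by over 1.5 times. Its other ranges were -0.003 to 0.403 in HFD-U against HFD-C, negative without the HFD-C mouse numbered 6, and -0.019 to 0.382 in HFD-50% against HFD-25%, negative without the HFD-50% mouse numbered 4. The causes were not tested.

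Over all genes, adjusted calls numbered 0 to 44 in HFD-25% (1 in the text), 0 to 160 in HFD-50% (0), 0 to 40 in HFD-75% (0), 0 to 28 in HFD-U (0), 28 to 144 in the 24 running mice (36) and 0 to 2 in NFD-C (0). Without a minimum count, unadjusted calls rose from 852 to 2415 in HFD-25%. The low-share libraries alone could not be used for NFD-C, which has none. Depth limited Map3k15 most, with 11 to 107 reads per library.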
